A study of Homo sapiens with 12 samples.

Results

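The response of L1236 to the DNA demethylating drug 5-Aza-dC was measured on 6 expression arrays of a series of 12. L1236 is an established line grown from the blood of a patient with Hodgkin lymphoma, and its cells are Hodgkin and Reed-Sternberg-type cells of B-cell origin. The treated group is 3 arrays of L1236 exposed to 1 µM 5-Aza-dC for 24 h, washed, and kept for 72 h in normal medium before RNA was taken. The untreated group is 3 arrays of L1236 grown in the same medium (RPMI1640 with 10% serum) with no drug, at an unstated time. The other 6 arrays hold L428, a second Hodgkin line, under the same 2 conditions, and enter here as a comparison and in the estimate of spread. L1236 is 1 line, so the values describe that line and carry no spread between patients. The treatment was done in triplicate, but the labels do not say whether each replicate was its own culture. The p-values therefore rest on the spread between arrays, which may be technical.

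5-Aza-dC, also called decitabine, enters DNA in place of deoxycytidine when cells replicate and traps DNA methyltransferases, so that daughter strands lose methylation at CpG sites. Genes that are silenced by methylation of CpG-rich promoters can then be transcribed, and the best known of these are germline genes that somatic cells normally keep off. Hodgkin cells are known for losing much of the B-cell programme and for high activity of the NF-kappaB, JAK-STAT and AP-1 pathways, which makes these pathways of interest beside the germline genes.

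Arrays were grouped by their descriptions. Untreated array 1 carries a source name that belongs to treated L428 cells, so its labels conflict. Over all genes it correlated at 0.994 and 0.995 with the other 2 untreated L1236 arrays and at most at 0.919 with any L428 array. Treated array 1 stood apart within its own group. Its deviations from the group mean had an SD of 0.384 on the log2 scale, against 0.156 to 0.250 on the other 5 L1236 arrays, and results that rest on it are given with and without it. All levels below are log2 signals after robust multichip averaging (RMA), so a step of 1 is a 2-fold step and a level near 2 or 3 is near the bottom of the scale. Levels of different genes come from different probes and are not compared. A difference is the treated minus the untreated mean with its standard error (SE) from a linear model (limma) over all 12 arrays, so that 4 of its 8 residual degrees of freedom come from L428, and a gene is called when its Benjamini-Hochberg adjusted p over 19775 genes is under 0.05.

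The markers fixed for the labelled cell type were read first. Of 7 measured B-lineage markers, 3 lay above 8 without drug, among them PAX5 at 12.07, 11.66 and 11.62, while MS4A1 (CD20) lay at 2.52, 2.52 and 2.53 and CD79A at 3.56, 3.42 and 3.60. Of 10 markers of Hodgkin and Reed-Sternberg cells, 8 lay above 8 without drug, among them TNFRSF8 (CD30) at 9.47, 9.76 and 9.48. TRAF1 lay at 2.04 to 2.22 and CCL22 at 3.13 to 4.50.

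In L1236, 2955 genes (14.9% of those tested) differed between treated and untreated arrays. Of these, 1699 (8.59%) were higher after 5-Aza-dC and 1256 (6.35%) were lower. At a difference of 2-fold or more, 1132 genes (5.72%) were higher and 543 (2.75%) lower. Large changes were mostly rises: 579 genes rose by at least 2 on the log2 scale and 83 by at least 5, against 100 and 2 genes that fell by as much. The median difference over all genes was -0.03. On the 6 L1236 arrays alone, 1098 of the 1675 2-fold calls were made again, and 1634 were made again without treated array 1. The share of calls that were rises was 57.5%, and it moved to 44.6% when arrays were centred on the median of all probe sets and to 8.55% when they were centred on the median of all genes, which moved the median difference to -0.51. All 3 treated arrays lay above all 3 untreated arrays for 15.8% of genes and below them for 41.5%. A full separation downward was thus common and by itself is not read as a fall.

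Where a gene stood without drug went with the direction of its change. Of 9333 genes with an untreated mean of 4 or less, 521 rose at least 2-fold and 6 fell. Among 3831 genes between 4 and 8, 375 rose and 218 fell. Above 8, 236 of 6611 genes rose and 319 fell. A gene at the bottom of the scale has no room to fall, so these counts describe the measured range as well as the cells. A set of 65 genes went from a mean of 4 or less to above 8, apart from 1 RNA that is not reported here, and 2 genes, HBD and PTPRR, went the other way. On the 6 L1236 arrays alone, 64 of the 65 were called. In L428 the difference was under 1 for 20 of the 65, and 32 were called higher there.

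**Figure D1:**
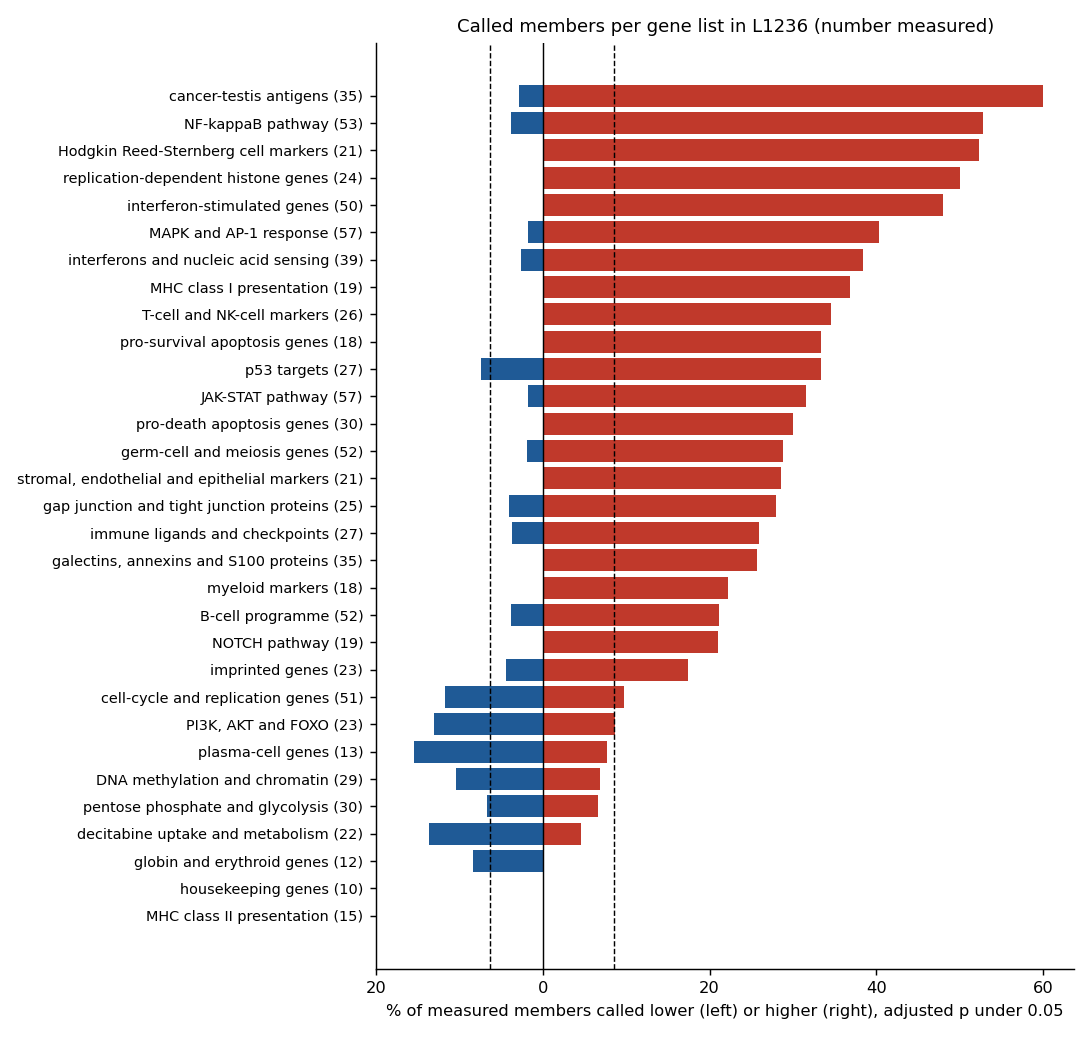
Share of measured members called lower (blue, to the left) and higher (red, to the right) in L1236 after 5-Aza-dC, for each gene list with at least 10 measured members (number in brackets). Dashed lines mark the shares over all genes, 6.35% lower and 8.59% higher. Cancer-testis antigens, the NF-kappaB pathway, markers of Hodgkin cells, histone genes and interferon-stimulated genes have the longest bars on the right, while no member of the housekeeping or MHC class II lists was called.

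The promoters of 4 genes that rose are shown as examples of CpG-richer and CpG-poorer promoters among genes that rose from the bottom of the scale. Each is the 300-base RefSeq window (GRCh38.p14) from 250 bases before to 50 bases after the annotated start, with CpG sites in capitals. DAZL, a germ-cell RNA-binding protein, lies at chr3:16605374-16605673 (minus strand) and has 33 CpG sites. GJB2, the gap junction protein connexin 26, lies at chr13:20192889-20193188 (minus strand) and also has 33. ITIH3, a secreted hyaluronan-binding protein, lies at chr3:52794546-52794845 (plus strand) and has 10. SPIB, an ETS transcription factor of B cells, lies at chr19:50418688-50418987 (plus strand) and has 11.
DAZL: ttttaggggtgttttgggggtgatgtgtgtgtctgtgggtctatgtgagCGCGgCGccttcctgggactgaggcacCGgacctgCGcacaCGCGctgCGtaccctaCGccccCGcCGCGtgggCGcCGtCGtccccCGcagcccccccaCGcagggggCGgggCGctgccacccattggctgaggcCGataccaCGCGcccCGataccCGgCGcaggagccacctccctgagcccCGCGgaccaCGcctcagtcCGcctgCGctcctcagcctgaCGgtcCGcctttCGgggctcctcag
GJB2: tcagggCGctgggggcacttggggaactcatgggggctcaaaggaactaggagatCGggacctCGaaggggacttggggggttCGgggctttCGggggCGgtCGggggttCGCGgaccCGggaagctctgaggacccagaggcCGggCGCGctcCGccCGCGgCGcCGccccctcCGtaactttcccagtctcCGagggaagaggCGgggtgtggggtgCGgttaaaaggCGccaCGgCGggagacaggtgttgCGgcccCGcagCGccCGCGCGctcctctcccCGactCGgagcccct
ITIH3: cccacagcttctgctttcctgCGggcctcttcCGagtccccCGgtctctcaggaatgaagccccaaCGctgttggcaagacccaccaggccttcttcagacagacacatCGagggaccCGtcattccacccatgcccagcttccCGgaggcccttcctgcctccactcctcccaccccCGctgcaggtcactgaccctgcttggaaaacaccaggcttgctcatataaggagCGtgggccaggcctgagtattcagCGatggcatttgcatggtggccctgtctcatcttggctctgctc
SPIB: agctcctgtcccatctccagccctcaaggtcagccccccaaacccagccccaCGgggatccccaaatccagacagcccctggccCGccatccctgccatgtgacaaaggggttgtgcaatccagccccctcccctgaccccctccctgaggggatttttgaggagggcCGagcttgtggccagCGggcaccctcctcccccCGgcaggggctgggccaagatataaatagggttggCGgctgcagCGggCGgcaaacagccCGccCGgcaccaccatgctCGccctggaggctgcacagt
A window was found for 56 of the 65 genes switched on, with a median of 17 CpG sites (quartiles 9 and 26) and a range of 1 to 60. Of the genes switched on, 25 had 20 or more CpG sites and 18 had 10 or fewer. No comparison with other genes is drawn: genes that stayed low, which are the like-for-like group, have a window in only 71.89% of cases, so that comparison is void. Methylation itself was not measured.

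The 20 largest rises mixed germline genes, such as MAGEA6 (difference 10.1) and DAZL (9.51), with others. ITIH3 (8.69), S100A11 (8.35), LGALS3 (8.33) and GJB2 (8.26) all came before rank 11. Ranks 11 to 20 mixed germline genes with signalling and metabolic genes. PRDX2, a peroxiredoxin that removes hydrogen peroxide, read 2.91, 2.89 and 2.91 without drug and 11.26, 10.80 and 10.85 with it, a difference of 8.07 (SE 0.11, adjusted p = 1.36e-09). That is the value of 1 of 4 probe sets for PRDX2, and the differences of the others reached down to 0.02. KLHL13, an adaptor of a ubiquitin ligase used in mitosis, rose from 2.85 to 2.91 without drug to 10.52, 11.25 and 11.02 (difference 8.05, SE 0.82, adjusted p = 0.000403). HORMAD1, a protein of the meiotic chromosome axis, rose from 2.20 to 2.32 to 10.56, 10.16 and 9.99 (difference 7.98, SE 0.38, adjusted p = 3.07e-06). In these 3 genes the treated arrays lay close together, treated array 1 included.

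TAF7L, a testis form of a TFIID subunit, read 2.72, 2.67 and 2.73 without drug and 9.88, 10.79 and 10.78 with it (difference 7.78, SE 0.93, adjusted p = 0.000963). MAEL and TDRD12, both of the piRNA pathway that silences transposons in germ cells, rose by 7.38 (SE 0.56) and 7.08 (SE 0.86). IL3, a haematopoietic growth factor, read 2.78, 3.21 and 4.10 without drug and 10.29, 10.98 and 11.15 with it, a difference of 7.45 (SE 1.10, adjusted p = 0.00282). PTGS2, the inducible cyclooxygenase that makes prostaglandin precursors, stood out by its spread. Its treated arrays read 7.41, 11.42 and 11.66 against 2.67, 2.67 and 2.68 without drug, so treated array 1 was about midway between the groups (difference 7.48, SE 1.65, adjusted p = 0.0178). MAGEA4 (8.82, 10.70 and 10.83) and the pseudogene DPY19L2P2 (9.29, 11.73 and 11.88) had the same order of treated arrays.

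**Figure D2:**
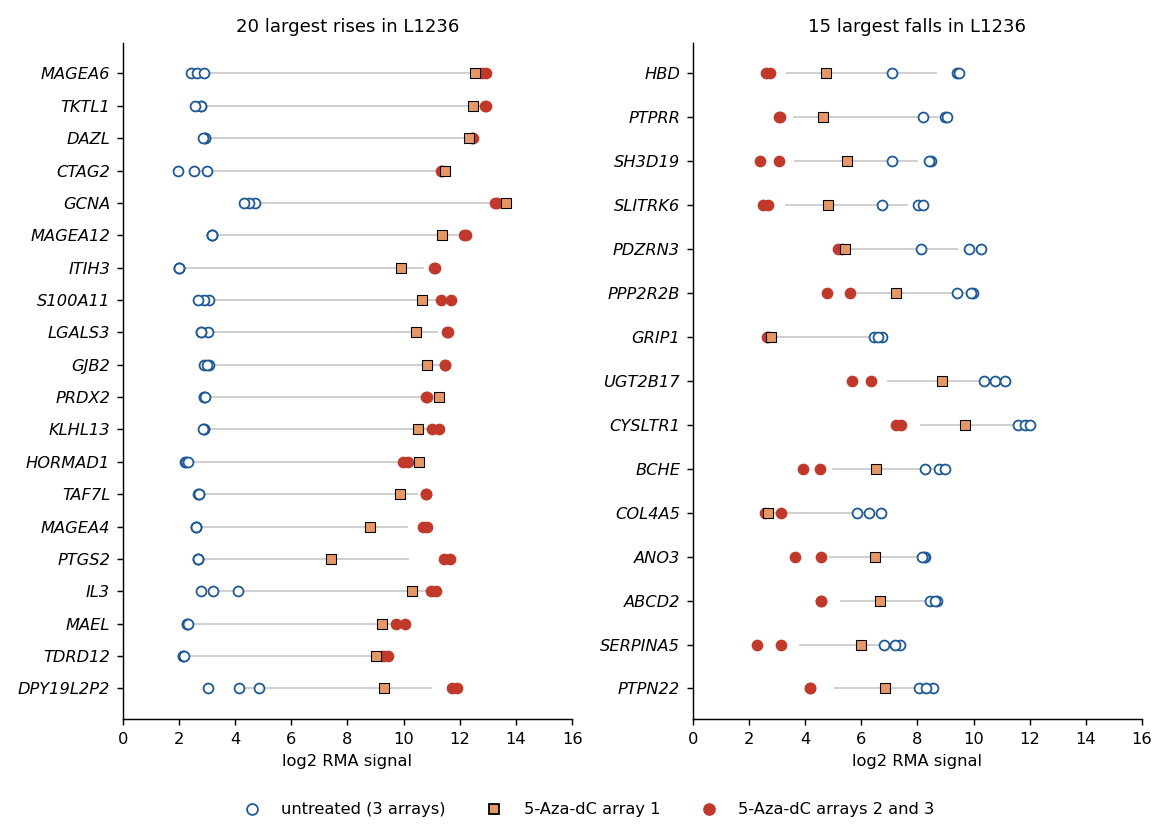
Log2 RMA signal on each L1236 array for the 20 largest rises (left) and the 15 largest falls (right) among called genes whose groups do not overlap. Open circles are the 3 untreated arrays, the orange square is treated array 1, filled red circles are treated arrays 2 and 3, and the grey line joins the group means. For most falls the square lies between the untreated arrays and the other 2 treated arrays, while for most rises it lies with them.

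Falls were smaller and more uneven. HBD, the delta chain of haemoglobin, read 7.08, 9.43 and 9.48 without drug and 4.74, 2.62 and 2.75 with it, a difference of -5.29 (SE 0.71, adjusted p = 0.00175). PTPRR, a receptor-type tyrosine phosphatase that acts on MAP kinases, read 8.18, 8.99 and 9.04 against 4.63, 3.09 and 3.12 (difference -5.13, SE 0.55, adjusted p = 0.000541). SLITRK6, a neuronal membrane protein, fell from 6.73, 8.01 and 8.19 to 4.81, 2.5 and 2.69 (difference -4.31, SE 0.59). In each of these the smallest gap between the groups was that between the 2 arrays numbered 1.

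GRIP1, a scaffold protein for glutamate receptors, was lower on every treated array by a similar amount. It read 6.73, 6.46 and 6.59 without drug and 2.81, 2.65 and 2.68 with it (difference -3.88, SE 0.16, adjusted p = 1.03e-06). COL4A5, a basement membrane collagen chain, also fell evenly, from 5.85, 6.71 and 6.30 to 2.66, 2.59 and 3.13 (difference -3.49, SE 0.20), but its second probe set had a difference of 0.09. CYSLTR1, a receptor for cysteinyl leukotrienes, fell from 11.59, 11.85 and 12.01 to 9.68, 7.43 and 7.23 (difference -3.70, SE 0.57, adjusted p = 0.00336). Among the 15 largest falls, SH3D19, UGT2B17, ANO3, SERPINA5 and PTPN22 were not called on the 6 L1236 arrays alone, with adjusted p from 0.0525 to 0.110 there.

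Cancer-testis antigens, proteins normally made in germ cells and seen again in tumours, rose as a list: 21 of 35 measured members were higher and 1 was lower, with a median difference of 2.18. In the MAGE-A family 5 of 7 measured members rose, in the MAGE-B and MAGE-C families 5 of 8. Both measured SSX genes rose, but from levels that were already high: SSX1 read 10.20, 9.65 and 9.44 without drug and 13.32, 12.91 and 12.93 with it. Probes of these families can read more than 1 near-identical copy, so single members are uncertain. CTCFL, a germline relative of the insulator protein CTCF, rose from 2.67, 2.66 and 2.79 to 7.14, 6.97 and 7.14 (difference 4.38, SE 0.20, adjusted p = 2.66e-06). The 1 lower member was SPANXB1, a sperm protein, at 10.10, 10.24 and 10.45 without drug and 8.56, 6.66 and 5.91 with it (difference -3.22, SE 0.54). It was not called on the 6 L1236 arrays alone (adjusted p = 0.0562).

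Germ-cell and meiosis genes were a mixed list. Of 52 measured members 15 rose and 1 fell, and the median difference was -0.02, so most members did not move. Among genes of the meiotic chromosome axis and recombination, 6 of 20 rose. SYCP3, a protein of the synaptonemal complex, rose from 3.57, 3.82 and 3.70 to 8.86, 9.05 and 8.58 (difference 5.13, SE 0.50, adjusted p = 0.000299). MEIOC, which keeps germ cells in meiosis, rose from 2.77 to 2.78 to 8.97, 8.80 and 8.18 (difference 5.88, SE 0.47). Among piRNA pathway genes 6 of 16 rose, among them TDRD9 by 4.12 (SE 0.33) and PIWIL2 by 2.94 (SE 0.20). For both genes all treated arrays lay above all untreated arrays.

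The interferon system rose in its regulators and targets while its ligands did not pass the test. None of 7 measured interferon genes was called. IFNL1, an interferon of the lambda type, read 2.28, 2.27 and 2.32 without drug and 2.29, 5.15 and 5.02 with it (difference 1.86, SE 0.68, adjusted p = 0.103). IFNB1 read 2.45, 2.44 and 2.46 without drug and 2.44, 4.94 and 3.62 with it (adjusted p = 0.348). Both ligands were thus at the bottom of the scale on treated array 1 and above it on treated arrays 2 and 3. The lack of a call for IFNL1 rests on treated array 1. In the fit without that array IFNL1 was called at least 2-fold higher, with changes of 2.86 and 2.72 on treated arrays 2 and 3. Without both arrays numbered 1, 1 of the 7 ligands was called higher.

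Among 6 interferon receptor chains 3 rose, and 1 of the 6 was called on the 6 L1236 arrays alone. IFNLR1, the receptor chain specific to lambda interferons, went from 3.76, 3.16 and 3.05 to 5.37, 6.50 and 6.43 (difference 2.77, SE 0.33, adjusted p = 0.000904). Of 18 sensors and adaptors of foreign or misplaced nucleic acid, 6 rose and 1 fell, against 2 and 1 on the 6 L1236 arrays alone. Over all genes 8.59% rose and 6.35% fell, so the share of falls was near that of all genes. RIGI, a sensor of double-stranded RNA, read 7.16, 6.89 and 7.11 without drug and 8.85, 9.86 and 9.94 with it (difference 2.49, SE 0.63, adjusted p = 0.0299). Of 8 interferon regulatory factors, the transcription factors of this system, 6 rose (5 on the 6 L1236 arrays alone). Over the whole list of interferons and sensing, the 15 rises among 39 genes became 8 on the 6 L1236 arrays alone and 3 to 5 without treated array 2, treated array 3, untreated array 2 or untreated array 3. IRF7 rose by 2.75 (SE 0.49, adjusted p = 0.00716) and IRF1 by 2.38 (SE 0.31, adjusted p = 0.00156), and neither gene's groups overlapped.

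Of 50 measured interferon-stimulated genes 24 rose and 0 fell (limma, adjusted p under 0.05), with a median difference of 1.48. On the 6 L1236 arrays alone 19 were called higher, and 32 were without both arrays numbered 1. IFI27, an interferon-induced mitochondrial protein, rose from 2.43, 2.43 and 2.44 to 7.77, 10.27 and 10.03 (difference 6.92, SE 1.01, adjusted p = 0.00266). CMPK2, a mitochondrial nucleotide kinase, rose from 2.85, 2.84 and 2.85 to 6.14, 8.85 and 8.84 (difference 5.10, SE 0.66, adjusted p = 0.00144). TRIM22, an antiviral ubiquitin ligase, rose from 4.06, 4.25 and 3.96 to 7.19, 9.12 and 9.08 (difference 4.38, SE 0.74). Every one of these had treated array 1 above the untreated arrays and below the other 2 treated arrays.

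The promoter window of IFI27 at chr14:94110486-94110785 (plus strand) is shown because it holds 2 matches to the core letters of the interferon-stimulated response element, GAAANNGAAA on either strand, in capitals. Of 27305 RefSeq windows of this length, 3.65% hold the core.
IFI27: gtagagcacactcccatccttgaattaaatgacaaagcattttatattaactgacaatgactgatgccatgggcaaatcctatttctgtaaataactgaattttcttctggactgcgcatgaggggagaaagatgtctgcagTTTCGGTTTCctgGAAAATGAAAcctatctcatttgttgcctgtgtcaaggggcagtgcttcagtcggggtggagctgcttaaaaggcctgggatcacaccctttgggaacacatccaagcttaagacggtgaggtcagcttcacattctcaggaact
A match is a description of the letters, not of binding. A count over the whole list is void, because 78% of its measured members have a window.

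MHC class I genes had a median difference of 0.32 and class II genes one of 0.04. Of 19 class I genes, which present peptides from inside the cell, 7 rose, among them HLA-E by 1.66 (SE 0.25, adjusted p = 0.00328) and HLA-B by 1.40 (SE 0.21, adjusted p = 0.00276). HLA-B read 12.77, 12.74 and 12.68 without drug and 13.67, 14.19 and 14.52 with it. Probes of these genes can read related class I genes. Of 15 class II genes 0 were called (limma). Without both arrays numbered 1, 3 class II genes were called higher and 3 lower.

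The NF-kappaB pathway rose broadly. Of 53 measured members 28 rose and 2 fell, and the median difference was 1.24. On the 6 L1236 arrays alone 21 were called higher and 0 lower, and without both arrays numbered 1 37 were higher and 1 lower. Among the 5 subunits of the factor itself, NFKB1 (p105 and p50) read 9.18, 9.24 and 9.16 without drug and 9.78, 11.03 and 11.12 with it (difference 1.45, SE 0.38, adjusted p = 0.0329). RELA (p65) rose by 0.95 (SE 0.27, adjusted p = 0.0450). Neither was called on the 6 L1236 arrays alone, with adjusted p of 0.0832 and 0.0882. REL (adjusted p = 0.0686), NFKB2 (0.0690) and RELB (0.168) had differences of 1.04, 1.35 and 0.58 and did not pass. Their lack of a call rests on the arrays numbered 1: without both of those arrays, 5 of the 5 subunits were called higher.

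Inhibitors that NF-kappaB itself induces rose in 6 of 9 cases. NFKBIZ, an inducible nuclear IkappaB protein, read 8.42, 7.45 and 7.80 without drug and 10.97, 13.14 and 13.33 with it (difference 4.59, SE 0.65, adjusted p = 0.00217). TNFAIP3 (A20), a ubiquitin-editing brake on the pathway, rose from 11.18, 10.68 and 10.84 to 12.55, 13.53 and 13.74 (difference 2.37, SE 0.29, adjusted p = 0.00102). Of 14 kinases, adaptors and receptors 6 rose and 2 fell (3 and 0 on the 6 L1236 arrays alone), the falls being TNFRSF11A (RANK) by -0.56 and IKBKB by -0.46. Among 25 ligands, cytokines and other targets 14 rose and 0 fell (limma), which was the largest share of the roles of this pathway after the inhibitors.

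Several of these targets are secreted. CCL22, a chemokine that draws regulatory T cells, read 4.50, 3.20 and 3.13 without drug and 8.13, 11.01 and 11.06 with it (difference 6.46, SE 0.86, adjusted p = 0.00168). IL1A, a danger cytokine, read 6.11, 3.45 and 3.31 against 8.21, 9.98 and 10.02 (difference 5.11, SE 0.73), so untreated array 1 was higher than the other untreated arrays. The second of the 2 IL1A probe sets had a difference of -0.21. IL6, an inflammatory cytokine, had the same feature, at 11.62, 9.30 and 9.35 without drug and 13.31, 14.55 and 14.56 with it (difference 4.05, SE 0.90, adjusted p = 0.0179). On untreated array 1, 5 of the 53 pathway members lay more than 1 above the mean of the other 2 untreated arrays and 1 lay more than 1 below, against 365 and 122 of all 19775 genes. Untreated array 1, which had the highest untreated IL1A and IL6, is also the array with the conflicting source name. Whether these facts are linked was not tested. PLAU, the urokinase protease, rose from 7.17, 6.36 and 6.64 to 9.84, 11.08 and 11.26 (difference 4.0, SE 0.42, adjusted p = 0.000501).

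The promoter window of NFKBIZ at chr3:101827740-101828039 (plus strand) is shown with its single match to the core of the NF-kappaB site, GGG, any 2 bases and TTTCC, on either strand, in capitals.
NFKBIZ: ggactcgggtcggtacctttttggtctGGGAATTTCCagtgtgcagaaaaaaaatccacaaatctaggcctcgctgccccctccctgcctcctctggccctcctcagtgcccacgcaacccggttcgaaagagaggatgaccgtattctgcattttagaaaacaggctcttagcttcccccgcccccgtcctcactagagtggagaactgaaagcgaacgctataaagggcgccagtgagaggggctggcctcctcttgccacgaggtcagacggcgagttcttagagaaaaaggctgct
Of 43 pathway members with a window (53 measured), 12 hold this core, or 27.9%, against 1.92% of all 27305 windows. Among them are TNFAIP3, IL6 and NFKB1. The list was put together from known NF-kappaB genes, so this share describes the list and not the response to the drug.

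**Figure D3:**
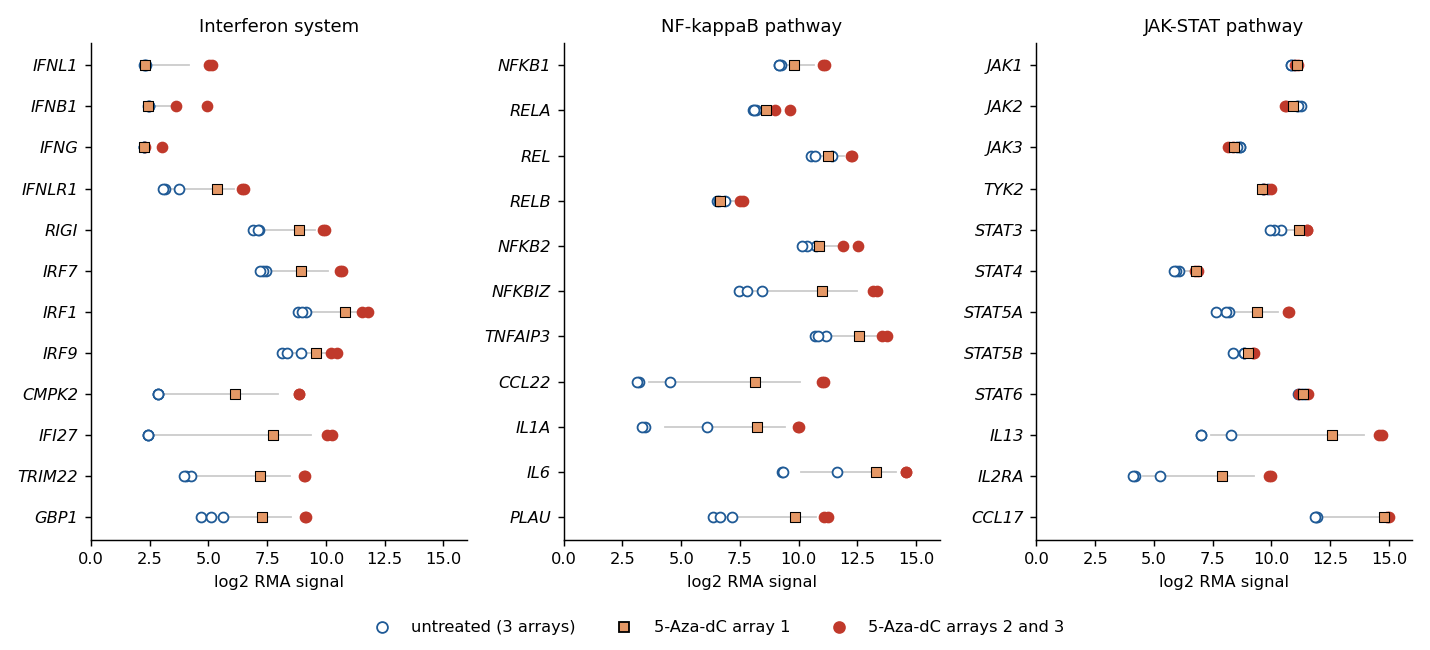
Log2 RMA signal on each L1236 array for genes of the interferon system (left), the NF-kappaB pathway (middle) and the JAK-STAT pathway (right), ordered by role within each panel. Open circles are untreated arrays, the orange square is treated array 1, red circles are treated arrays 2 and 3. The kinases JAK1, JAK2, JAK3 and TYK2 had differences between -0.45 and 0.20, while targets such as IL13, CCL22 and IFI27 rose on all treated arrays and least on array 1.

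The JAK-STAT pathway carries cytokine signals from receptors to the nucleus, by way of kinases and STAT factors. Of 57 measured members 18 rose and 1 fell, with a median difference of 0.35, and 12 were called higher on the 6 L1236 arrays alone. Of 9 ligands 4 rose (2 on the 6 arrays). IL13, a growth factor of Hodgkin cells, read 8.26, 6.99 and 6.99 without drug and 12.57, 14.58 and 14.70 with it (difference 6.53, SE 0.82, adjusted p = 0.00120). Of 17 receptor chains 5 rose (3 on the 6 arrays). IL2RA (CD25) rose from 5.25, 4.18 and 4.12 to 7.90, 9.89 and 9.96 (difference 4.73, SE 0.88, adjusted p = 0.00821). IL13RA2, a decoy receptor for IL13, rose from 2.41, 2.56 and 2.52 to 5.94, 7.21 and 7.04 (difference 4.23, SE 0.54).

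None of the 4 kinases was called: JAK1, JAK2, JAK3 and TYK2 had differences of 0.20, -0.45, -0.30 and 0.06. Among 5 measured STAT factors, STAT3 and STAT5A rose. STAT3 read 10.40, 10.10 and 9.96 without drug and 11.16, 11.51 and 11.50 with it (difference 1.24, SE 0.13, adjusted p = 0.000483). STAT5A read 8.20, 8.08 and 7.62 against 9.39, 10.69 and 10.73 (difference 2.30, SE 0.38, adjusted p = 0.00509). STAT4, STAT5B and STAT6 had differences of 0.86, 0.47 and 0.07 and did not pass. Of 14 inhibitors, SOCS3 rose by 1.65 (SE 0.35, adjusted p = 0.0156) and SOCS2 by 0.74, and PTPRC (CD45), a phosphatase of the leukocyte surface, fell.

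PTPRC read 12.25, 11.90 and 11.97 without drug and 10.95, 9.05 and 8.80 with it (difference -2.44, SE 0.56, adjusted p = 0.0201). SOCS3 and PTPRC were not called on the 6 L1236 arrays alone (adjusted p = 0.0509 and 0.0731). Of 8 target genes 5 rose (3 on the 6 arrays). CCL17 (TARC), the chemokine by which Hodgkin cells draw T helper cells, was one of the most even rises of the pathway, from 11.91, 11.92 and 11.86 to 14.78, 14.92 and 15.01 (difference 3.01, SE 0.20, adjusted p = 2.68e-05).

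The MAP kinase and AP-1 list holds immediate early genes, their feedback inhibitors and receptors. Of 57 measured members 23 rose and 1 fell, with a median difference of 0.92, and 16 were called higher on the 6 L1236 arrays alone. Of 12 AP-1 and related factors 7 rose, against 3 on the 6 L1236 arrays alone. FOS read 4.02, 5.91 and 6.52 without drug and 8.81, 10.75 and 10.85 with it (difference 4.65, SE 1.10, adjusted p = 0.0230). FOSB rose by 2.83 (SE 0.46, adjusted p = 0.00437). BATF3, an AP-1 partner that is already abundant in Hodgkin cells, read 14.47, 14.57 and 14.50 against 14.59, 14.42 and 14.41 (adjusted p = 0.792).

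Feedback inhibitors of ERK rose in 7 of 12 cases (5 on the 6 L1236 arrays alone). DUSP6, an ERK phosphatase, rose evenly, from 8.63, 8.26 and 7.96 to 10.90, 10.90 and 11.01 (difference 2.65, SE 0.24, adjusted p = 0.000208). Of 14 early response and target genes 7 rose, among them EGR1 from 9.91, 10.25 and 10.38 to 13.42, 14.28 and 14.01 (difference 3.72, SE 0.85, adjusted p = 0.0206). PHLDA1, a target of ERK signalling, rose by 3.88 (SE 0.38, adjusted p = 0.000341). Of 19 receptor tyrosine kinases 2 rose and 1 fell, a share of rises near that of all genes (8.59%). Of 23 genes of the PI3K, AKT and FOXO pathway 2 rose, also near that share, and 3 fell, where 6.35% of all genes fell. Of 19 NOTCH pathway genes 4 rose (2 on the 6 arrays) and 0 fell (limma).

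Of 52 measured members of the B-cell programme 11 rose and 2 fell, where 8.59% of all genes rose and 6.35% fell, and the median difference was 0.08. On the 6 L1236 arrays alone 5 rose and 0 fell (limma). Of 15 surface markers 6 rose, against 3 on the 6 arrays. SPIB was the member with the largest rise, from 2.44, 3.08 and 2.45 to 8.68, 9.27 and 9.62 (difference 6.54, SE 0.31, adjusted p = 3.07e-06). CXCR5, the receptor that leads B cells into follicles, rose from 6.03, 5.47 and 5.07 to 8.25, 9.56 and 9.83 (difference 3.69, SE 0.38), and CD83, an activation marker, rose by 3.88 (SE 0.53). In contrast the B-cell antigen CD20 (MS4A1) stayed at the bottom of the scale, at 2.43 to 2.5 with drug. Of 18 genes of the B-cell receptor and its signalling 2 rose, a share near that of all genes (8.59%). CD79B rose by 0.81 on 1 of 3 probe sets (down to -0.04 on the others). LYN rose by 0.45, which was -0.03 with arrays centred on the gene median. Neither was called on the 6 L1236 arrays alone (adjusted p = 0.146 and 0.0698). MEF2C, a transcription factor of B cells, read 10.58, 10.88 and 10.97 against 10.22, 8.47 and 8.44 (difference -1.77, SE 0.41, adjusted p = 0.0215), and was not called on the 6 arrays either (adjusted p = 0.109).

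Of 13 plasma-cell genes 1 rose, 2 fell and 10 were not called, where 8.59% of all genes rose and 6.35% fell. PRDM1 (Blimp-1), the regulator that ends the B-cell programme, rose from 6.06, 5.97 and 6.21 to 7.75, 7.80 and 7.66 (difference 1.65, SE 0.10, adjusted p = 1.16e-05). CD27, a receptor of memory B cells and plasma cells, fell from 11.39, 11.72 and 11.48 to 10.20, 9.98 and 10.00 (difference -1.47, SE 0.11, adjusted p = 5.63e-05). MZB1, a chaperone of antibody assembly, fell by 1.10 on the log2 scale (SE 0.30, adjusted p = 0.0376). Of 21 markers of Hodgkin and Reed-Sternberg cells 11 rose and 0 fell (limma), with a median of 0.95; several are also NF-kappaB or STAT targets named above. GATA3, a T-cell factor that Hodgkin cells express, rose from 12.87, 12.78 and 12.87 to 13.32, 13.73 and 13.87. Of 27 immune ligands and checkpoint genes 7 rose and 1 fell, and 2 rose without any one of treated arrays 2 and 3 and untreated arrays 2 and 3. CD274 (PD-L1) read 10.89, 9.71 and 9.74 without drug and 12.04, 12.32 and 12.38 with it (difference 2.14, SE 0.58, adjusted p = 0.0397), and ULBP2, a ligand of the NK receptor NKG2D, rose by 3.47 (SE 0.46).

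Genes on both sides of apoptosis rose. Of 18 pro-survival genes 6 rose and 0 fell (limma), with a median of 0.78. BCL2A1, a BCL2 relative induced by NF-kappaB, rose from 9.45, 8.63 and 8.73 to 11.12, 13.12 and 13.24 (difference 3.55, SE 0.52, adjusted p = 0.00273). CFLAR (c-FLIP), which blocks death receptors, rose by 1.18 (SE 0.17, adjusted p = 0.00242). BCL2L1 (difference 1.63, adjusted p = 0.0827), MCL1 (0.59, 0.190), BCL2 (1.06, 0.333) and XIAP (0.01, 0.978) did not pass. Of 30 pro-death genes 9 rose and 0 fell (limma), with a median of 0.21, and 2 of the 30 were called higher on the 6 L1236 arrays alone and 1 without any one of treated arrays 2 and 3 and untreated arrays 2 and 3. DAPK1, a death-associated kinase, rose from 8.96, 8.01 and 7.93 to 10.61, 10.92 and 11.07 (difference 2.57, SE 0.27, adjusted p = 0.000490).

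Inhibitors of cyclin-dependent kinases rose in 3 of 6 cases. CDKN1A (p21), the classic p53 target, read 7.37, 6.95 and 6.51 without drug and 9.18, 10.61 and 10.82 with it (difference 3.26, SE 0.58, adjusted p = 0.00652). CDKN1C (p57), which is imprinted, rose from 3.79, 4.19 and 3.38 to 6.81, 7.37 and 6.92 (difference 3.25, SE 0.31, adjusted p = 0.000301). CDKN2D (p19) rose by 1.77 (SE 0.22, adjusted p = 0.00117), and its second probe set had a difference of -0.02. CDKN1B, CDKN2A and CDKN2B had differences of 0.41, -0.84 and 0.96 and did not pass. Of 27 p53 targets 9 rose and 2 fell, with 5 and 1 on the 6 L1236 arrays alone. Over all genes 8.59% rose and 6.35% fell, so the share of falls was near that of all genes.

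Of 51 cell-cycle and replication genes 5 rose, 6 fell and 40 were not called, with a median of -0.30. Over all genes 8.59% rose and 6.35% fell. GINS2, part of the replicative helicase, fell from 12.08, 12.63 and 12.49 to 11.45, 10.48 and 10.31 (difference -1.65, SE 0.34, adjusted p = 0.0135). RRM1, a subunit of ribonucleotide reductase, fell by 1.02 on the log2 scale (SE 0.24, adjusted p = 0.0242). On the 6 L1236 arrays alone 1 member was lower, and without both arrays numbered 1 21 were. Leaving out only treated array 1 gave 22, and leaving out only untreated array 1 gave 5. Leaving out treated array 2, treated array 3, untreated array 2 or untreated array 3 gave 0 to 1, so this count rests on single arrays. CDK6, the kinase of G1 entry, rose from 11.52, 11.22 and 11.22 to 12.21, 12.79 and 12.90 (difference 1.32, SE 0.17, adjusted p = 0.00132).

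Replication-dependent histone genes, whose mRNAs normally lack poly(A) tails, rose in 12 of 24 cases and fell in 0 (limma), with a median of 1.54. H2BC4 rose from 3.58, 3.99 and 3.95 to 8.19, 8.10 and 8.08 (difference 4.28, SE 0.43, adjusted p = 0.000397). H4C8 rose from 6.87, 5.88 and 6.35 to 10.00, 10.66 and 10.29 (difference 3.95, SE 0.78, adjusted p = 0.0112). Histone genes are near copies of each other, so single members are uncertain. The count was 12 on the 6 L1236 arrays alone too.

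Among the DNA methyltransferases, which the drug traps, DNMT1 was lower in RNA and DNMT3A was higher. DNMT1, the maintenance methyltransferase, read 12.65, 12.80 and 12.63 without drug and 12.30, 12.05 and 12.02 with it (difference -0.57, SE 0.14, adjusted p = 0.0241). DNMT3A, a methyltransferase that sets new marks, rose from 5.96, 5.45 and 5.02 to 6.92, 7.41 and 7.36 (difference 1.75, SE 0.46, adjusted p = 0.0358). DNMT3B, TET1, TET2 and TET3 did not pass, with differences of 0.60, -0.07, 0.22 and -0.39. Of 29 genes of DNA methylation and its readers 2 rose and 3 fell, and of 22 genes of decitabine uptake and metabolism 1 rose and 3 fell. The shares of rises were near or below that of all genes (8.59%), while the shares of falls were above that of all genes (6.35%). On the 6 L1236 arrays alone 3 members of each list were called lower. Of 30 genes of the pentose phosphate pathway and glycolysis 2 rose and 2 fell, near the shares of all genes (8.59% and 6.35%). Among these rises was TKTL1, at 2.79, 2.80 and 2.58 without drug and 12.46, 12.89 and 12.92 with it. Its difference of 10.04 (SE 0.60, adjusted p = 1.24e-05) was among the largest rises of all genes. Of 12 globin and erythroid genes 0 rose and 1 fell, which was HBD. None of the 7 measured endogenous retroviral envelope genes was called (limma). Of 23 imprinted genes 4 rose and 1 fell, among them PEG3, a zinc finger gene expressed from the paternal copy, from 2.15, 2.14 and 2.15 to 5.33, 7.39 and 7.26 (difference 4.51, SE 0.84, adjusted p = 0.00831).

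Galectins, annexins and S100 proteins, small proteins that bind sugars, membranes or calcium, had 9 of 35 members higher and 0 lower (limma), with a median of 0.17. A few members rose from the bottom of the scale. S100A11 read 3.07, 2.88 and 2.66 without drug and 10.64, 11.33 and 11.68 with it, LGALS3 (galectin-3) 3.04, 2.78 and 2.78 against 10.46, 11.54 and 11.60. The LGALS3 value is that of 1 of its 2 probe sets, and the other had a difference of -0.05. S100A6 rose from 3.80, 3.30 and 3.30 to 8.87, 8.83 and 9.15 (difference 5.49, SE 0.19, adjusted p = 4.14e-07). Proteins of gap and tight junctions rose in 7 of 25 cases (4 on the 6 L1236 arrays alone) and fell in 1. GJB2 read 2.90, 3.09 and 3.0 without drug and 10.85, 11.46 and 11.47 with it. GJA1 (connexin 43) was already present and rose from 8.76, 8.64 and 8.69 to 11.23, 11.33 and 11.18 (difference 2.55, SE 0.15, adjusted p = 9.92e-06). TJP1, a scaffold of tight junctions, rose by 5.30 (SE 0.49).

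Markers of other cell types were read as lists. Among 26 markers of T and NK cells 9 rose, and their summed level went from 90.0 to 92.2 on untreated arrays to 108 to 111 on treated ones. CD8A read 1.95, 2.0 and 1.97 without drug and 4.93, 5.28 and 5.77 with it, and CD3D 3.87, 4.66 and 3.88 against 6.42, 6.57 and 6.69. The other CD3 chains stayed at the bottom, CD3E at 1.75, 1.74 and 1.75 and CD3G at 2.12, 2.51 and 2.13 with drug. Of 18 myeloid markers 4 rose (summed level 54.1 to 55.2 against 63.8 to 70.0), led by TYROBP, a signalling adaptor, from 3.40, 3.20 and 3.46 to 9.61, 9.48 and 9.10. CD14, LYZ, MPO and CSF3R lay between 2.25 and 2.75 on all treated arrays. Of 21 stromal, endothelial and epithelial markers 6 rose (summed level 95.4 to 98.5 against 117 to 121). EPCAM, an epithelial adhesion protein, read 2.82, 2.83 and 2.84 against 8.45, 7.98 and 8.16, and THY1 rose by 5.95 (SE 0.23), while COL3A1 lay at 2.96, 2.82 and 2.92 with drug. None of 10 housekeeping genes was called (limma), and their summed level was 131 to 133 without drug and 130 to 132 with it.

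The change on treated array 1 was set against that on treated arrays 2 and 3. For each gene that rose at least 2-fold in a fit without treated array 1, its change on that array was divided by the mean change on arrays 2 and 3, so that 1 is a rise of the same size. These genes were chosen by being high on arrays 2 and 3, which by itself lowers the share, and more so where changes are small, so the shares are a description with no test. Over all 1536 such genes the median share was 0.572, and 309 had a share above 0.9. Cancer-testis antigens had a median share of 0.908 (19 genes, 0 under 0.5), and germ-cell and meiosis genes 0.951 (16 genes, 2 under 0.5). Histone genes had 0.888 (14 genes) and galectins, annexins and S100 proteins 0.90 (9 genes). Interferon-stimulated genes had 0.509 (34 genes, 16 under 0.5), the NF-kappaB pathway 0.491 (33 genes, 17 under 0.5), the JAK-STAT pathway 0.483 (20 genes) and the MAPK and AP-1 list 0.514 (26 genes). Shares of single genes ran from -0.73 to 2.60 over all 1536 genes, and 2 genes are given as examples of a high and a low share. HORMAD1 reached 10.56 on treated array 1 against 10.16 and 9.99 on the others, while FOSL2, an AP-1 subunit, reached 4.04 against 7.47 and 7.58. FOSL2 was not called on the 6 L1236 arrays alone (adjusted p = 0.145). Genes that fell had a median share of 0.413 over 1067 genes. Median changes on arrays 1, 2 and 3 were 4.40, 4.43 and 4.44 for the cancer-testis antigens and 0.90, 1.89 and 2.12 for the NF-kappaB genes. Whether the lists differ in their share was not tested, nor was any cause.

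**Figure D4:**
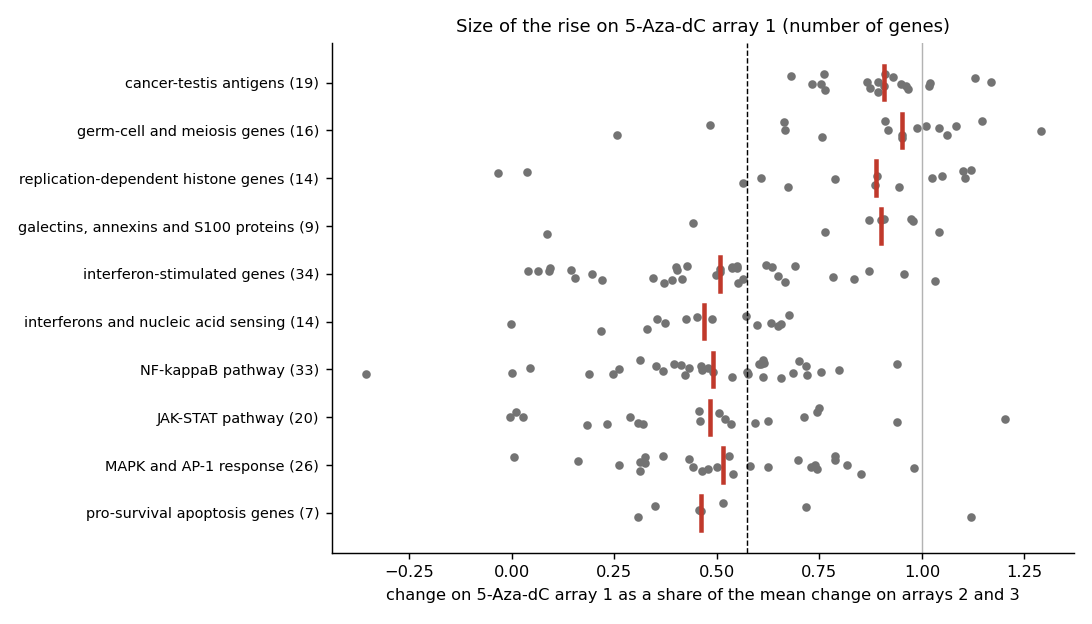
Change on treated array 1 as a share of the mean change on treated arrays 2 and 3, for genes that rose at least 2-fold in a fit without treated array 1 (grey points, 1 per gene; number per list in brackets). Red bars are list medians, the dashed line is the median over all such genes (0.572) and the grey line marks a share of 1. Cancer-testis, germ-cell, histone and galectin, annexin and S100 lists have medians of 0.888 to 0.951, while interferon-stimulated, NF-kappaB, JAK-STAT and MAPK and AP-1 lists have medians of 0.483 to 0.514.

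Genes that rose were at times neighbours. Among protein-coding genes ordered along the chromosomes, the next measured gene was also called at least 2-fold higher after 113 of 1075 such genes, or 10.5%, where 6.52% of all ordered genes were. There were 13 runs of 3 or more, and the genes below were named after their values were seen. The chemokine genes CCL22, CX3CL1 and CCL17 lie next to each other and rose by 6.46, 3.47 and 3.01, and their neighbour PLLP by 1.58. The cytokine genes LTA, TNF and LTB rose by 2.78, 2.35 and 2.57. The interferon-induced GTPase genes GBP1, GBP2, GBP4 and GBP5 rose by 3.39, 2.23, 2.91 and 1.88. SPIB rose together with MYBPC2 (4.23), a muscle protein gene beside it. The only run of 3 or more falls was GSTM4, GSTM2 and GSTM1, glutathione transferases, with differences of -2.20, -2.16 and -2.16. GBP and GSTM genes are near copies, so their probes may read each other's RNA.

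The response of L1236 was set against that of L428 by the difference of the 2 differences in the same fit. The lines' responses differed for 914 genes (4.62%), 527 of them higher in L1236 and 387 lower. Called in both lines and in the same direction were 338 genes, and 18 were called in opposite directions. Cancer-testis antigens had similar medians, 2.18 in L1236 and 2.15 in L428, and 4 of 35 differed between the lines. Interferon-stimulated genes had a median of 1.48 in L1236 and 3.43 in L428, and 22 of 50 differed. The NF-kappaB list had a median of 1.24 in L1236 and 0.40 in L428, and 9 of 53 differed. Whether these list medians differ was not tested.

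Among the 5 largest differences in favour of L1236 were LGALS3 (9.02, SE 0.43, adjusted p = 5.68e-06), ITIH3 (8.70, SE 0.37) and GJB2 (8.13, SE 0.25), each with a difference within 0.68 of 0 in L428. S100A11 was the fourth at 7.63, and 1 RNA of the 5 is not reported here. Among the 5 in favour of L428, PLS3, an actin-bundling protein, had a difference of -1.21 in L1236 and 5.72 in L428, and IFNL2, a lambda interferon, -0.02 against 6.17. H2AC6 (-6.82), SSX1 (-6.05) and CCNA1 (-6.02) made up the rest.

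**Figure D5:**
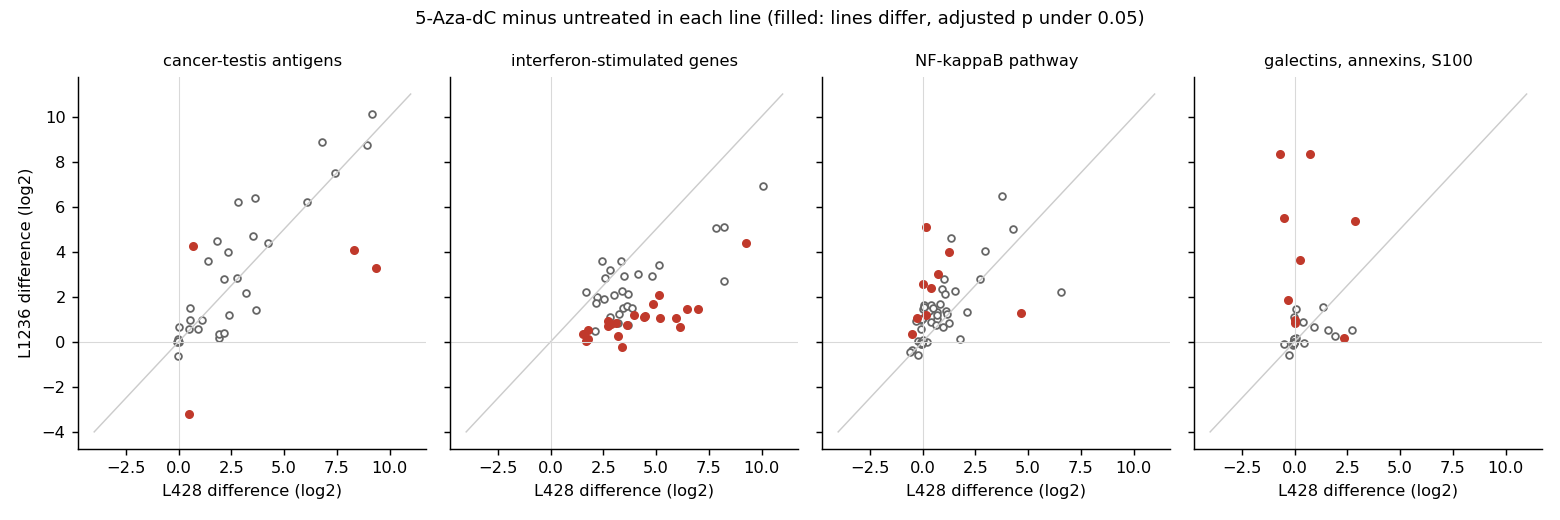
Difference between treated and untreated arrays in L1236 (vertical, log2) against that in L428 (horizontal, log2) for the measured members of 4 gene lists. Filled points are genes whose responses differ between the lines (adjusted p under 0.05), and the diagonal marks equal responses. Interferon-stimulated genes lie mostly below the diagonal, most NF-kappaB genes lie above it, and a few S100 and galectin genes rise in L1236 with little change in L428.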

How the data were processed

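The deposited values are log2 signals of 54675 probe sets on 12 arrays, made by the authors with robust multichip averaging (RMA), per the series' design text and the submitters' processing notes; the RMA version is not given in the sources used here. That text names a whole-transcript array (Human Gene 1.0 ST), while the probe set names are those of a 3' expression array, and this conflict was not settled. Of the probe sets, 41091 carry 1 gene symbol, 1801 several and 11783 none; 41037 were matched by Entrez ID to RefSeq (GRCh38.p14). Each of 19775 genes was read from 1 probe set, that of highest average level across the 12 arrays. limma 3.58.1 (R 4.3.3) was fitted with 4 group means and Benjamini-Hochberg adjustment, and was tested on simulated data. Alternatives were the 6 L1236 arrays alone, other scalings, array weights, probe set rules, a filter on dim genes, a replicate block and leaving out arrays. The comparison and the 33 gene lists were chosen with earlier results of these data known. Named genes were the 20 largest rises and 15 largest falls with groups that do not overlap, up to 4 rises and 3 falls per list role, all members of 6 short roles, the 5 largest differences between lines each way, and the cell type markers; BATF3, BCL2, BCL2L1, MCL1, XIAP, GATA3 and the neighbouring genes were added after their values were seen. Promoter windows are from RefSeq. Some RNAs are not reported here.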

Additional observations from a re-analysis of the deposited data

Results flagged for a closer look

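The response to 5-Aza-dC differed between L1236 and L428 for 914 genes by a test of the difference itself (limma, adjusted p under 0.05), and the named genes among them are given here as the L1236 difference minus the L428 difference on the log2 scale. Among surface, junction, secreted and S100 or galectin genes named in the text the values were ITIH3 (8.70), LGALS3 (9.02), GJB2 (8.13), S100A11 (7.63), S100A6 (5.99), EPCAM (5.39), TJP1 (5.19), THY1 (4.61) and GJA1 (2.36). Among signalling genes the values were IL13 (5.01), IL1A (4.96), CCL17 (2.29), CX3CL1 (3.71), LTB (2.55), PLAU (2.76), PHLDA1 (3.57), DUSP6 (2.13), TNFAIP3 (1.98), STAT3 (1.31) and JAK1 (0.51). B-cell genes and their neighbours gave SPIB (5.98), CXCR5 (3.76), CD83 (3.55), PRDM1 (1.64) and MYBPC2 (5.08). Genes of growth control and death gave CDKN1C (2.42), CDKN2D (1.69), CDK6 (1.26) and DAPK1 (2.17), germ-cell genes and PRDX2 gave MEIOC (4.34), PIWIL2 (2.37), TDRD9 (2.19) and PRDX2 (2.92), and markers of other cell types gave CD8A (3.37), CD3D (2.72) and TYROBP (1.97). For LGALS3, IL1A, CDKN2D and COL4A5 a second probe set had a difference in L1236 of -0.048, -0.21, -0.020 and 0.093.

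Genes whose response was lower in L1236 fall into those with a larger rise in L428 and those with a fall in L1236. The former gave PLS3 (-6.92), H2AC6 (-6.82), IFNL2 (-6.20), SSX1 (-6.05), CCNA1 (-6.02) and TRIM22 (-4.87). The latter gave HBD (-5.04), PTPRR (-5.08), SH3D19 (-4.33), SLITRK6 (-4.27), GRIP1 (-4.12), CYSLTR1 (-3.86), COL4A5 (-3.47), SPANXB1 (-3.71), MEF2C (-3.01) and CD27 (-1.99). JAK2 (-1.50), like JAK1 above, was not called in L1236 itself. No cause of any of these differences was tested.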

How the results depend on the processing

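Counts depended on scaling and on single arrays. The 2955 called genes (1699 higher, 1256 lower, 1675 at 2-fold) became 9469 (3585, 5884, 3052) with array weights and 14098 (12893 lower, 3349 at 2-fold) with centring on the gene median. Centring on all probe sets, chosen after seeing the data as was centring on bright genes, gave 2172 lower. Without probe sets marked x or s, 1121 were higher, and the NF-kappaB list had 15 higher. Leaving out 1 array gave 1506 to 4488 called, 970 to 2335 higher, 483 to 2153 lower and 993 to 2603 at 2-fold; the highest counts came without treated array 1. The difference between lines gave 442 to 2112 genes in place of 914, 1908 without both arrays numbered 1 and 4389 with array weights. Leaving out 1 array gave 14 to 35 interferon-stimulated, 18 to 38 NF-kappaB, 10 to 22 JAK-STAT and 10 to 31 MAPK and AP-1 genes higher. Array weights gave 43 interferon-stimulated and 37 MAPK and AP-1 genes, and a filter on dim genes left 12 cancer-testis antigens higher. With replicate number as a block, 497 genes differed between lines, and 15 interferon-stimulated and 11 JAK-STAT genes were higher. The numbers are those in the submitters' sample titles and also follow accession order. Same-numbered arrays correlated at 0.049, -0.018 and 0.063 in their deviations from group means, so they were not taken as pairs in the main fit. Without x or s probe sets, values changed sign for CD79B (-0.043), CDKN2D (-0.020), COL4A5 (0.093), IL1A (-0.21) and LGALS3 (-0.048), and with gene-median centring for CD3G (-0.35) and LYN (-0.033). Of 114 named genes that were called, 22 were not called on the 6 L1236 arrays alone, 19 with the block, 2 without treated array 1 and 21 to 34 without any other single L1236 array. Leaving out 1 array also gave 3 to 18 interferon and sensing genes higher, 5 to 11 B-cell, 7 to 12 Hodgkin marker, 2 to 11 immune ligand, 1 to 10 pro-death and 4 to 11 p53 target genes. The causes were not tested. With 3 arrays a group, array number limits precision, and levels near the bottom of the scale cannot show a fall.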
